A study of Arabidopsis thaliana with 16 samples.

Results

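LHCB4.1 (AT5G01530), LHCB4.2 (AT3G08940), RCA (AT2G39730), PSAE-1 (AT4G28750), ATPC1 (AT4G04640), PSBW (AT2G30570) and PSAN (AT5G64040) are nuclear genes of Arabidopsis thaliana whose proteins work in the chloroplast. They were taken by name, as a set of photosystem genes plus the gene for Rubisco activase, and make up 7 of the 13286 genes that the annotation of the array names. Each is read by a probe set matched to that gene alone. All 112 member values, 7 genes on 16 arrays, lay above their array's 35th percentile of signal, by at least 37.7 times. Cross-hybridisation between the related LHCB4 copies was not tested.

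Light is captured by pigment-protein antennae around photosystem II and photosystem I, passed as excitation to the reaction centres and used to move electrons and protons across the thylakoid membrane. ATP synthase makes ATP from the proton gradient, and Rubisco activase keeps the carbon-fixing enzyme Rubisco open for catalysis. The antennae and many small subunits are encoded in the nucleus and imported, while most core subunits are encoded in the chloroplast. Seedlings grown in darkness hold plastids without working photosystems, and light starts their conversion to chloroplasts in the cotyledons and, later, in the leaves formed by the shoot apex.

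The study followed this greening in Landsberg erecta seedlings (stock N1642) of 1 genotype. Stratified seeds on Murashige and Skoog agar without sucrose received white light at 100 µmol m-2 s-1 for 30 min, and the seedlings then grew for 3 days in the dark at 21 °C before white light was switched on. Shoot apices, cut below the meristem and at the cotyledon bases, were taken in the dark (2 arrays) and after 1 h (2 arrays), 2 h (1 array), 6 h (2 arrays), 24 h, 48 h and 72 h of light (1 array each), and the 48 and 72 h apices also held developing leaf primordia. Cotyledons without petiole and tip were taken in the dark and after 1 h and 6 h of light (2 arrays each). Every sample pooled many seedlings from several plates and experiments, and each seedling gave only 1 of the tissues. The samples used here hold no seedlings kept in the dark to the later times, so a difference after light cannot be told apart from age or time of day.

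Values are MAS5 signals on a linear scale, which the submitters had scaled to a 2% trimmed mean of 100.01 on every array. Differences are given on the log2 scale from limma over 18237 probe sets, with the standard error, and a gene is said to rise or fall where the adjusted p was under 0.05. The p-values measure the spread between these pooled samples, and the 4 groups with 1 array were assumed to vary like the 6 groups with 2. The labels do not say whether the 2 arrays of a group came from independent pools of seedlings. The second dark apex array correlated least on average with the arrays outside its group (0.786), and the second 6 h apex array had a 3'/5' ratio of GAPDH of 5.40 against 0.832 to 1.85 on the other apex arrays. The apex counts and values of the 7 genes at 6 h and over 24 to 72 h, and of the listed genes at those times, are given below without both of these arrays as well. Of 8 apex markers listed for this work 2 could be tested, the stem-cell peptide gene CLV3 and the axillary meristem regulator LAS. Their summed signal was 45.1 to 74.7 on the apex arrays except 72 h, where it was 16.6, and 8.50 to 50.7 on the cotyledon arrays, so the 72 h array and the first dark array, at 45.1, lay within the cotyledon range. At 72 h both genes were under that array's 35th percentile, and CLV3 was also under it on the dark and 1 h apex arrays, the first 6 h one and all cotyledon arrays. At 1 h, 1 of the 2 (LAS) was lower in the cotyledon, where 4.91% of all probe sets were. The mean correlation of the 72 h apex array with the arrays outside its group was 0.789, close to that of the second dark array. It was kept where the second dark and second 6 h arrays were left out. In pooled tissue, more cells that express a gene and more RNA per cell cannot be told apart.

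In the apex, none of the 7 genes passed the test after 1 h of light, LHCB4.2 alone did after 2 h, 5 did after 6 h and 6 did over 24 to 72 h. PSAN, PSAE-1, PSBW, RCA and LHCB4.2 rose at 6 h by 1.00 to 1.78, and over 24 to 72 h by 1.20 to 1.72, joined by ATPC1 with 0.96. In the cotyledon the test passed for LHCB4.2 at 1 h and for LHCB4.2 and PSAN at 6 h. LHCB4.1 did not pass in any of the comparisons with darkness. The shares of all probe sets called higher were 5.35% at 2 h, 12.3% at 6 h and 8.61% over 24 to 72 h in the apex, and 1.51% and 7.79% at 1 and 6 h in the cotyledon. Without the 2 apex arrays named above the members' median went from 1.09 to 0.90 at 6 h and from 1.29 to 1.27 over 24 to 72 h. Most of the 6 h calls were lost without both arrays, and some of the 24 to 72 h calls without 1 dark array alone, as given below. No member fell in any comparison.

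**Figure D1:**
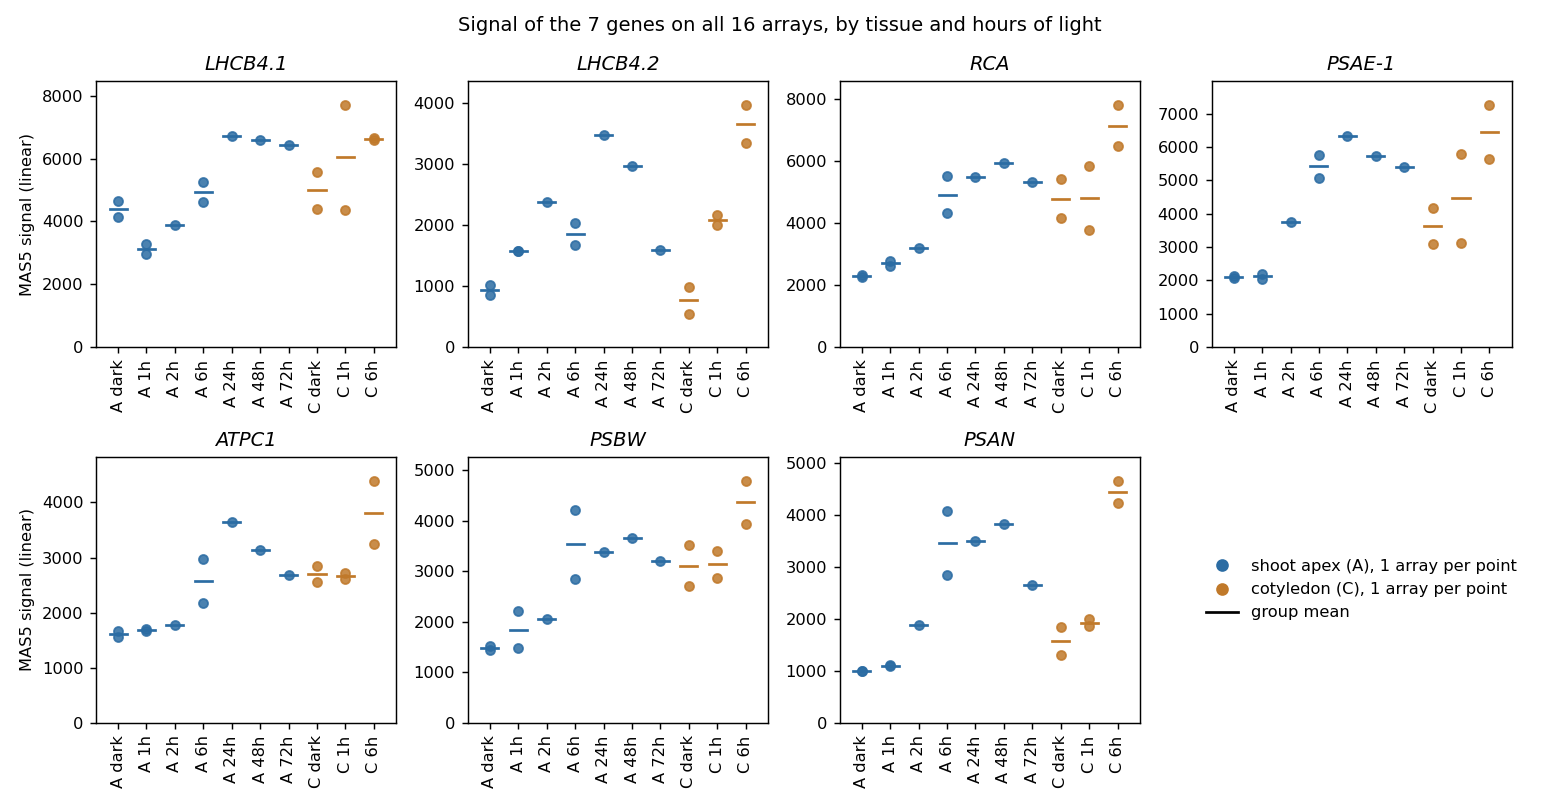
MAS5 signal (linear scale) of the 7 genes on each of the 16 arrays, 1 panel per gene, with apex (A) and cotyledon (C) groups along the horizontal axis, a point for each array and a line at each group mean. LHCB4.1 was at 4149.7 and 4661 in the dark apex already, whereas PSAN went from 992 and 999 there to 4223 and 4656 in the 6 h cotyledon.

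LHCB4.1 and LHCB4.2 encode CP29, a minor antenna protein that sits between the photosystem II core and its mobile light-harvesting trimers. In the apex, the LHCB4.2 signal was 1009 and 848 in the dark, 1566 and 1571 after 1 h of light, 2380.2 after 2 h, 2029.8 and 1675 after 6 h, 3477 after 24 h, 2972 after 48 h and 1588 after 72 h. The cotyledon arrays read 981 and 548 in the dark, 2006 and 2158 after 1 h and 3961 and 3347 after 6 h. Every illuminated array of either tissue lay above both dark arrays of its tissue, with the highest apex signals at 24 and 48 h and the highest of all in the 6 h cotyledon. The 72 h apex array read close to the 1 h arrays. It is the array with the low apex marker sum of 16.6, whose part in this value was not tested.

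For LHCB4.2 the apex difference from darkness was 0.76 ± 0.29 (SE, adjusted p = 0.111) at 1 h, where both light arrays exceeded both dark arrays without passing the test. At 2 h it rose by 1.36 ± 0.35 (SE, adjusted p = 0.0227), and 5.35% of all probe sets were called higher there. The change was 1.00 ± 0.29 (SE, adjusted p = 0.0201) at 6 h, 1.91 (adjusted p = 0.00362) at 24 h, 1.68 (adjusted p = 0.00792) at 48 h and 0.78 (adjusted p = 0.209) at 72 h. The gap between 24 and 72 h, 1.13, did not pass the test (adjusted p = 0.239). In the cotyledon LHCB4.2 rose by 1.51 ± 0.29 (SE, adjusted p = 0.0101) within 1 h, a size exceeded by 3.42% of probe sets. By 6 h the rise was 2.31 ± 0.29 (SE, adjusted p = 0.000123), and 2.82% of probe sets had a larger one.

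The 2 h call of LHCB4.2 was lost without the second dark apex array (1.24, adjusted p = 0.107), and the 1 h cotyledon call was lost without the second dark cotyledon array (1.09, adjusted p = 0.124) or the second 1 h cotyledon array (1.45, adjusted p = 0.0685). The 6 h cotyledon rise passed with any array left out.

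The apex signal of LHCB4.1 was 4149.7 and 4661 in the dark, 3290.2 and 2949 after 1 h of light, 3893 after 2 h, 4620.1 and 5240.4 after 6 h, 6729 after 24 h, 6580.4 after 48 h and 6444 after 72 h. In the cotyledon it was 5583 and 4395 in the dark, 7698 and 4370.4 after 1 h and 6600.3 and 6669 after 6 h. Both 1 h apex arrays and the 2 h array lay below both dark apex arrays, and the arrays from 24 h on lay above them. In the cotyledon the 1 h arrays lay just below and well above the dark pair. The apex difference of LHCB4.1 from darkness was -0.50 ± 0.32 (SE, adjusted p = 0.383) at 1 h, 0.16 (adjusted p = 0.763) at 6 h and 0.58 ± 0.29 (SE, adjusted p = 0.223) for the mean of 24, 48 and 72 h. The 95% interval of that last difference ran from -0.05 to 1.21. Whether LHCB4.1 differed from the other members was not tested. In the cotyledon LHCB4.1 differed from darkness by 0.23 (adjusted p = 0.859) at 1 h and 0.42 (adjusted p = 0.45) at 6 h.

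Because both copies were read on the same arrays, their log2 ratio can be followed array by array, and a constant scale factor cancels. A shift that depends on signal strength would not cancel, and LHCB4.1 read brighter than LHCB4.2 on every array. Relative to the mean of the dark arrays of the same tissue, the log2 ratio of LHCB4.2 to LHCB4.1 was 0.21 and -0.21 in the dark apex, 1.18 and 1.34 at 1 h, 1.54 at 2 h, 1.06 and 0.60 at 6 h, 1.30 at 24 h, 1.10 at 48 h and 0.23 at 72 h. In the cotyledon it was 0.25 and -0.25 in the dark, 0.82 and 1.74 at 1 h and 2.02 and 1.76 at 6 h. All 12 illuminated arrays lay above both dark arrays of their tissue, by a small margin at 72 h. At 1 h in the apex the shift combined an LHCB4.2 difference of 0.76 with an LHCB4.1 difference of -0.50, neither of which passed on its own. The ratio describes these arrays and was given no test.

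**Figure D2:**
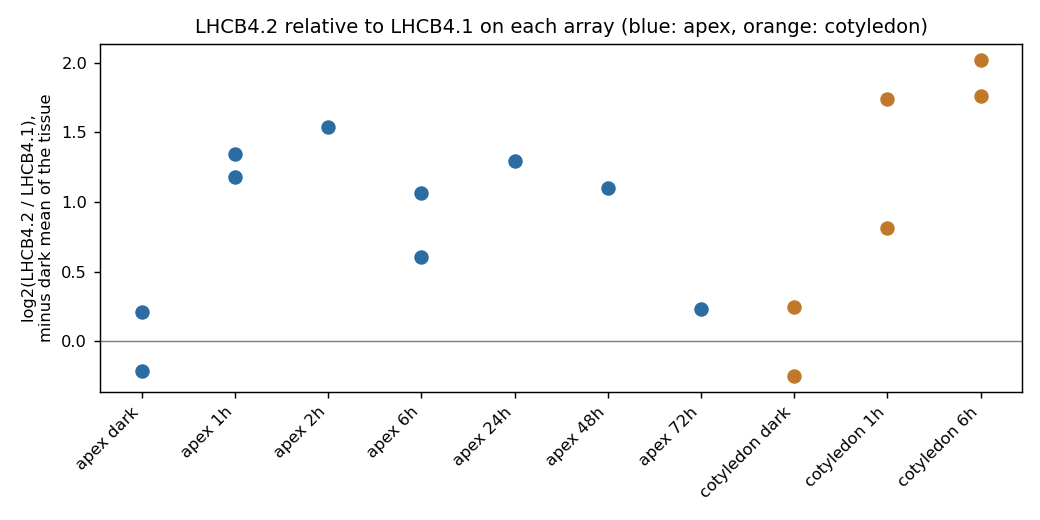
Change of the log2 ratio of LHCB4.2 to LHCB4.1 signal from the mean dark ratio of the same tissue (vertical axis, log2 units), a point for each array, by hours of light. The apex arrays from 1 to 48 h lie between 0.60 and 1.54, the 72 h apex array at 0.23, and the 6 h cotyledon arrays at 1.76 and 2.02.

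PSBW encodes a small single-helix subunit of photosystem II that is needed for stable supercomplexes of core and antenna. Apex arrays gave a PSBW signal of 1523 and 1445 in the dark, 1475 and 2202 after 1 h of light, 2055 after 2 h, 2849 and 4213 after 6 h, 3386 after 24 h, 3649.8 after 48 h and 3205 after 72 h. Cotyledon arrays gave 3524 and 2695 in the dark, 3399.6 and 2862 after 1 h and 4784 and 3931 after 6 h. The arrays from 2 h on all exceeded both dark apex arrays, but the 6 h arrays were far apart, and in the cotyledon only the 6 h arrays exceeded both dark ones. PSBW differed from the dark apex by 0.28 (adjusted p = 0.636) at 1 h, rose by 1.22 ± 0.30 (SE, adjusted p = 0.00873) at 6 h and by 1.20 ± 0.27 (SE, adjusted p = 0.00894) over 24 to 72 h. The cotyledon differences were 0.02 (adjusted p = 0.991) at 1 h and 0.49 (adjusted p = 0.328) at 6 h.

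PSAN and PSAE-1 are subunits of photosystem I. PSAN lies on the lumenal side and takes part in electron transfer from plastocyanin, and PSAE lies on the stromal side near the site where ferredoxin docks. The PSAN signal of the apex was 999 and 992 in the dark, 1107 and 1095 after 1 h of light, 1883 after 2 h, 2850.1 and 4072 after 6 h, 3501 after 24 h, 3820.3 after 48 h and 2652 after 72 h. Cotyledon values were 1848 and 1309 in the dark, 1991 and 1856 after 1 h and 4656 and 4223 after 6 h. In the apex every illuminated array exceeded both dark arrays, narrowly at 1 h and by a wide margin from 6 h on, and both 1 h cotyledon arrays also lay just above both dark ones.

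PSAN differed from the dark apex by 0.15 (adjusted p = 0.803) at 1 h and 0.92 (adjusted p = 0.0955) at 2 h. It rose by 1.78 ± 0.27 (SE, adjusted p = 0.000309) at 6 h, where 6.95% of probe sets had a larger change, and by 1.72 ± 0.24 (SE, adjusted p = 0.000265) over 24 to 72 h. PSAN was the only one of the 7 genes called at 72 h, with a rise of 1.41 ± 0.33 (SE, adjusted p = 0.0146), where 4.52% of all probe sets were called higher. In the cotyledon it differed by 0.31 (adjusted p = 0.741) at 1 h and rose by 1.51 ± 0.27 (SE, adjusted p = 0.00155) at 6 h, with a rise of 1.21 ± 0.27 (SE, adjusted p = 0.011) between 1 and 6 h. That last call, 1 of 7 members against 5.21% of all probe sets, was lost with any 1 of the 4 arrays left out.

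PSAE-1 had an apex signal of 2127 and 2077 in the dark, 2182 and 2054 after 1 h of light, 3762 after 2 h, 5069 and 5766 after 6 h, 6339 after 24 h, 5726 after 48 h and 5389.9 after 72 h. Its cotyledon signal was 4161 and 3094 in the dark, 5800.2 and 3116 after 1 h and 7255 and 5631 after 6 h. The 1 h apex arrays overlapped the dark ones, the 2 h array lay well above them and all later arrays were higher still, while in the cotyledon the second 1 h array sat at the level of the second dark array. PSAE-1 differed from the dark apex by 0.01 (adjusted p = 0.99) at 1 h and 0.84 (adjusted p = 0.234) at 2 h, and it rose by 1.36 ± 0.33 (SE, adjusted p = 0.00753) at 6 h and 1.47 ± 0.30 (SE, adjusted p = 0.00415) over 24 to 72 h. The cotyledon differences, 0.24 (adjusted p = 0.846) at 1 h and 0.83 (adjusted p = 0.11) at 6 h, did not pass the test.

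ATPC1 encodes the gamma subunit of the chloroplast ATP synthase, the rotating shaft that carries the light-dependent redox switch of the enzyme. Its signal in the apex was 1563 and 1666 in the dark, 1672 and 1703 after 1 h of light, 1774 after 2 h, 2169 and 2966 after 6 h, 3637 after 24 h, 3140.2 after 48 h and 2685 after 72 h. The cotyledon arrays gave 2851 and 2551 in the dark, 2716 and 2610.3 after 1 h and 4392 and 3243 after 6 h. The dark, 1 h and 2 h apex arrays spanned a narrow range, and each array from 6 h on lay above it. ATPC1 differed from the dark apex by 0.06 (adjusted p = 0.919) at 1 h, 0.14 (adjusted p = 0.872) at 2 h and 0.65 (adjusted p = 0.0877) at 6 h. It rose by 1.17 ± 0.32 (SE, adjusted p = 0.039) at 24 h and by 0.96 ± 0.24 (SE, adjusted p = 0.0156) over 24 to 72 h. The latter call was lost without the first dark apex array (0.91) and without the second alone (1.00). In the cotyledon the differences were -0.02 (adjusted p = 0.988) at 1 h and 0.48 (adjusted p = 0.263) at 6 h.

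RCA encodes Rubisco activase, the ATP-using enzyme that frees Rubisco of inhibitory sugar phosphates. On the apex arrays RCA had a signal of 2317 and 2265 in the dark, 2778 and 2620.1 after 1 h of light, 3199 after 2 h, 4316 and 5516 after 6 h, 5490.5 after 24 h, 5947 after 48 h and 5332 after 72 h. On the cotyledon arrays it had 5434 and 4153 in the dark, 5835 and 3789 after 1 h and 7813 and 6489 after 6 h. In the apex every illuminated array exceeded both dark arrays, and in the cotyledon the 1 h arrays lay outside the dark pair on both sides while the 6 h arrays exceeded it. RCA differed from the dark apex by 0.24 (adjusted p = 0.71) at 1 h and 0.48 (adjusted p = 0.519) at 2 h, then rose by 1.09 ± 0.31 (SE, adjusted p = 0.018) at 6 h and 1.29 ± 0.28 (SE, adjusted p = 0.00633) over 24 to 72 h. The cotyledon differences were -0.01 (adjusted p = 0.993) at 1 h and 0.58 (adjusted p = 0.243) at 6 h.

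Set side by side, the genes were ordered as follows over the apex time course. After 1 h, 0 of 7 passed the test against 5.69% of all probe sets called higher, and the members' median difference was 0.15 against -0.0027 for all. After 2 h the order of the differences was LHCB4.2, PSAN, PSAE-1, RCA, PSBW, ATPC1 and LHCB4.1, from 1.36 to -0.18. After 6 h it was PSAN, PSAE-1, PSBW, RCA, LHCB4.2, ATPC1 and LHCB4.1. Then 5 of 7 members were called higher against 12.3% of all probe sets, with a members' median of 1.09 against -0.07. The share of probe sets with a larger change was 6.95% for PSAN, 11.5% for PSAE-1, 13.7% for PSBW, 15.9% for RCA and 17.5% for LHCB4.2. Standard errors of the members ran from 0.26 to 0.33, against a median of 0.42 over all probe sets. A change of a given size thus passed more easily in these genes than in most.

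At 24 h, 4 of 7 were called higher (LHCB4.2, PSAN, PSAE-1 and ATPC1) against 5.06% of all probe sets. At 48 h, 5 of 7 were (PSAN, LHCB4.2, PSAE-1, RCA and PSBW) against 4.45%. For the mean of 24, 48 and 72 h the count was 6 of 7 against 8.61%, with a members' median of 1.29 against 0.02. The time points share the dark arrays, so their values are not independent of each other. Without the first dark array 2 genes were called at 24 h and 2 at 48 h, and without the second 2 and 1, with LHCB4.2 and PSAN at 24 h in both cases. The PSAN call at 72 h was also lost without the second dark array (1.41, adjusted p = 0.0565). In a setting added after the data were seen, the mean was taken without 1 of the 24, 48 and 72 h arrays, and each time the 6 genes passed. Without the 72 h array LHCB4.2 stood at 1.80 (adjusted p = 0.00073) and PSAN at 1.88 (adjusted p = 0.000299).

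As a share of each gene's own log2 difference over 24 to 72 h, LHCB4.2 stood at 52.2% after 1 h and 93.5% after 2 h, against 8.43% and 53.4% for PSAN and 0.709% and 57.3% for PSAE-1. RCA and PSBW stood at 37.5% and 39.2% after 2 h, and ATPC1 at 14.3%. By 6 h PSAN and PSBW had reached 103.0% and 101.9%, PSAE-1 93.0%, RCA 84.9%, and LHCB4.2 and ATPC1 68.3% each. These shares describe the order of the differences, and whether 2 genes differed in timing was not tested. The 1 h difference of LHCB4.2 was not called, and its 2 h value came from 1 array and was 1.24 without the second dark array. Without the 72 h array the mean over the later times went from 1.46 to 1.80 for LHCB4.2 and from 1.72 to 1.88 for PSAN. The early shares of both would be smaller against those means. The shares include the 2 apex arrays named above, without which all 7 genes stood lower at 6 h than over 24 to 72 h. PSAN was then at 1.51 and 1.72, PSAE-1 at 1.25 and 1.45, and LHCB4.2 at 1.01 and 1.33. PSBW was at 0.90 and 1.16, RCA at 0.90 and 1.27, and ATPC1 at 0.47 and 1.00. Between 1 and 6 h, PSAN rose by 1.63 ± 0.27 (SE, adjusted p = 0.00315) and PSAE-1 by 1.35 ± 0.33 (SE, adjusted p = 0.027), 2 of 7 members against 2.81% of all probe sets, and PSAE-1 lost its call without any 1 of the 1 h arrays or the second 6 h array. The LHCB4.2 difference over that span was 0.23 (adjusted p = 0.736). From 6 h to the later times 0 of 7 were called, with differences of -0.05 to 0.46, where 10.3% of all probe sets were called higher.

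With both of the apex arrays named above left out, 1 of 7 members was called at 6 h, PSAN (1.51, adjusted p = 0.0134), and the members' median was 0.90. PSAE-1 was then at 1.25 (adjusted p = 0.0978), LHCB4.2 at 1.01 (adjusted p = 0.123), and PSBW and RCA at 0.90 each (adjusted p = 0.163 and 0.184). Without the second dark array alone 2 were called, and without the second 6 h array alone 3. The 6 calls over 24 to 72 h all passed without both arrays, and 3 of them (PSAN, PSAE-1 and LHCB4.2) passed without the second dark array alone. After quantile normalisation the members' median at 6 h was 0.76 and 3 were called, with RCA at 0.61 (adjusted p = 0.0586), LHCB4.2 at 0.76 (adjusted p = 0.0601) and LHCB4.1 at -0.14 (adjusted p = 0.732).

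**Figure D3:**
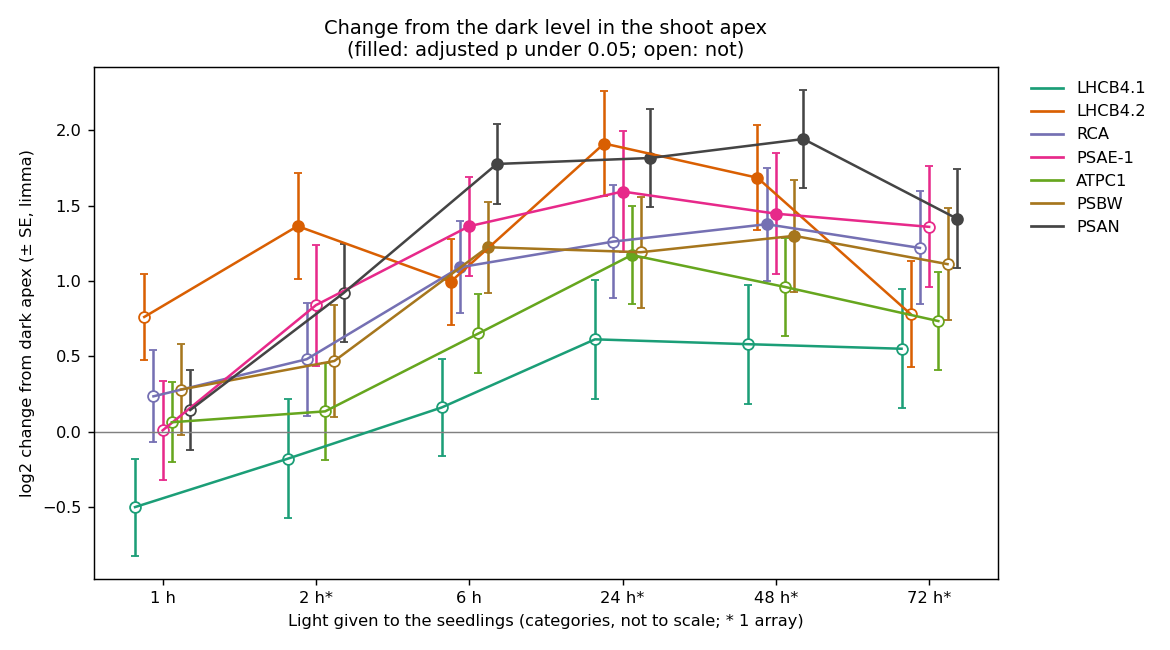
Log2 change of each of the 7 genes from the dark apex (vertical axis, log2 units) by time in light (horizontal axis, as categories not to scale, with times of 1 array starred), with bars of 1 standard error from limma and filled points where the test passed. LHCB4.2 is the highest line at 1, 2 and 24 h and PSAN at 6, 48 and 72 h, and LHCB4.1 is the lowest throughout, from -0.50 at 1 h to 0.61 at 24 h.

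In the cotyledon 1 of 7 genes was called after 1 h of light, LHCB4.2, against 1.51% of all probe sets called higher, and the members' median was 0.23 against -0.12 for all. The other 6 genes differed by -0.02 to 0.31, and the members' median ran from -0.11 to 0.40 with 1 of the 4 arrays left out, the lowest without the first 1 h array. After 6 h, 2 of 7 were called higher, LHCB4.2 and PSAN, against 7.79% of all probe sets, with a median of 0.58 against -0.08. All 7 genes lay above both dark cotyledon arrays on both 6 h arrays. The first dark and first illuminated arrays tended to read higher, for 7 of 7 members in the dark and 6 of 7 at 1 h and at 6 h, by a median log2 of 0.39, 0.25 and 0.27.

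In darkness, PSBW and RCA were higher in the cotyledon than in the apex, by 1.06 ± 0.30 (SE, adjusted p = 0.0273) and 1.05 ± 0.31 (SE, adjusted p = 0.0298), which is 2 of 7 members against 8.36% of all probe sets. The differences of the others were 0.77 (adjusted p = 0.129) for PSAE-1, 0.74 (adjusted p = 0.0713) for ATPC1, 0.64 (adjusted p = 0.119) for PSAN, 0.17 (adjusted p = 0.786) for LHCB4.1 and -0.34 (adjusted p = 0.487) for LHCB4.2. For PSBW, RCA, PSAE-1, ATPC1 and PSAN both dark cotyledon arrays exceeded both dark apex arrays. The 3'/5' ratio of GAPDH moved with tissue here, at 0.899 and 1.78 in the dark apex and 4.72 and 2.60 in the dark cotyledon. That of actin did not move the same way, at 7.13 and 12.6 in the dark apex and 7.15 and 6.71 in the dark cotyledon. The part of either ratio was not tested. Both calls were lost when any 1 of the 4 dark arrays was left out and after quantile normalisation. Scaling moved all genes here: centring each array on its median took the median of all probe sets from -0.07 to 0.16, the proportion of called probe sets lying on the higher side from 49.5% to 65.5%, and the count of members called to 3.

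After 1 h of light the cotyledon minus apex difference was positive for all 7 genes, from 0.41 to 1.01, where the median of all probe sets was -0.16. However, 0 of 7 passed the test, against 3.79% of all probe sets called higher. The 3'/5' ratio of GAPDH was 0.832 and 1.85 on the 1 h apex arrays and 2.31 and 3.54 on the cotyledon ones. That of actin was 7.70 and 14.1 on the 1 h apex arrays and 9.98 and 7.86 on the cotyledon ones. The part of either was not tested. Without the second 1 h cotyledon array 2 were called, PSAE-1 at 1.45 and LHCB4.1 at 1.30. After 6 h the difference was 0.24 to 0.98 and again 0 of 7 passed, against 1.01%. LHCB4.2 had the largest of these 6 h differences, 0.98 (adjusted p = 0.0801).

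The difference between the tissues in the light response was tested as an interaction, the cotyledon change minus the apex change. At 1 h, 0 of 7 genes passed, against 0.757% of all probe sets called higher, with values from -0.26 to 0.74. At 6 h, 0 of 7 passed, against 1.44%. LHCB4.2 had the largest value at 6 h, 1.32 ± 0.40 (SE, adjusted p = 0.103), with a 95% interval of 0.45 to 2.18, so the unadjusted interval left out 0 while the p adjusted over all probe sets did not pass. Over the alternative settings that adjusted p ran from 0.0586 to 0.292. PSBW had the lowest, -0.73, with an interval of -1.65 to 0.18. RCA, PSBW and PSAE-1 were thus called in the apex and not in the cotyledon at 6 h, without their responses being shown to differ. The PSAE-1 interaction was -0.53 (adjusted p = 0.616). Without both apex arrays named above, the 6 h apex changes were 0.90 for RCA, 0.90 for PSBW and 1.25 for PSAE-1. The members' median 6 h interaction then went from -0.26 to -0.0018, so the larger apex changes rest in part on those arrays.

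**Figure D4:**
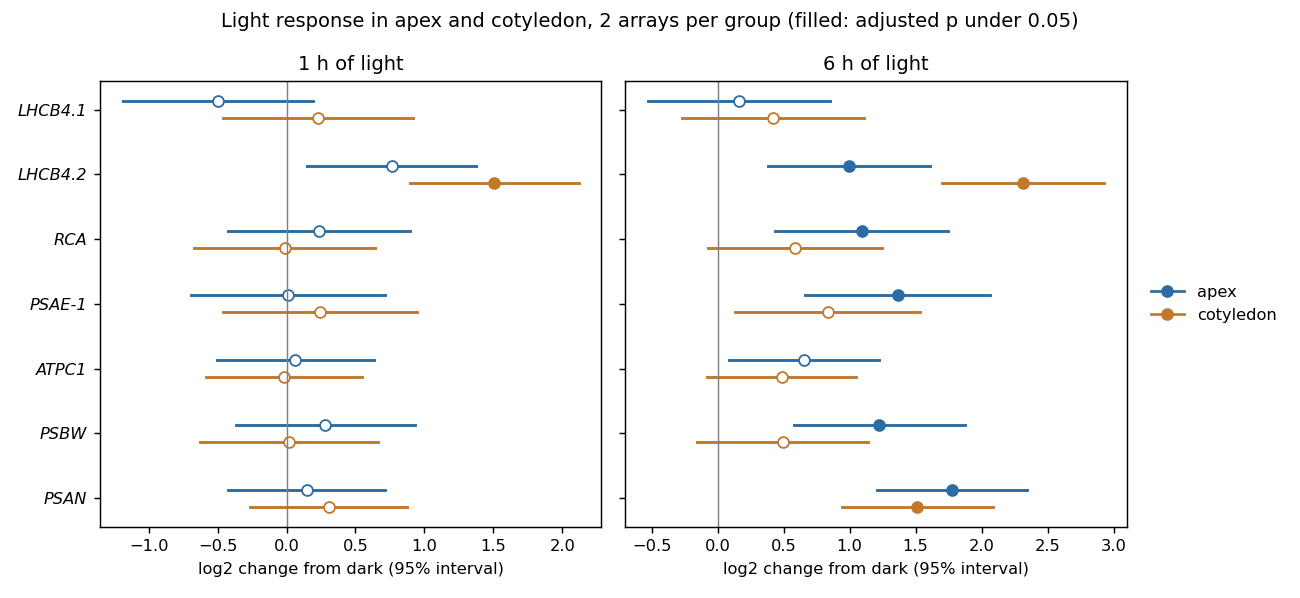
Log2 change from darkness with its 95% interval (horizontal axis, log2 units) for each of the 7 genes (vertical axis) in the apex and in the cotyledon, after 1 h on the left and 6 h on the right; filled points passed the test. At 6 h LHCB4.2 lies at 1.00 in the apex and 2.31 in the cotyledon, while PSBW, RCA and PSAE-1 lie further right in the apex, at 1.22, 1.09 and 1.36 against 0.49, 0.58 and 0.83. Without the second dark and second 6 h apex arrays, these apex values of PSBW, RCA and PSAE-1 were 0.90, 0.90 and 1.25.

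Ordered by group mean, the 6 h cotyledon was the highest of the 10 groups for 6 genes and the 24 h apex for LHCB4.1. The dark apex was the lowest group for RCA, PSAE-1, ATPC1, PSBW and PSAN, the dark cotyledon for LHCB4.2 and the 1 h apex for LHCB4.1. From lowest to highest group the LHCB4.2 signal spanned 4.97-fold and the PSAN signal 4.46-fold. The span was 3.11-fold for RCA, 3.04-fold for PSAE-1, 2.92-fold for PSBW, 2.34-fold for ATPC1 and 2.16-fold for LHCB4.1.

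Below the 6 h cotyledon, the order for PSAN ran through the apex at 48, 24, 6 and 72 h, the 1 h cotyledon, the 2 h apex, the dark cotyledon, the 1 h apex and the dark apex. For PSAE-1 it ran through the apex at 24, 48, 6 and 72 h and then as for PSAN with the 1 h cotyledon above the 2 h apex and the dark cotyledon. For RCA the apex at 48, 24, 72 and 6 h stood above both earlier cotyledon groups, which stood above the 2 h, 1 h and dark apex. PSBW had the apex at 48, 6, 24 and 72 h in that place, again above the 1 h and dark cotyledon and the 2 h, 1 h and dark apex. ATPC1 had the 24 and 48 h apex, then the dark cotyledon, the 72 h apex, the 1 h cotyledon and the 6 h apex within 2568 to 2701, and the 2 h, 1 h and dark apex below. LHCB4.2 was ordered as the apex at 24, 48 and 2 h, the 1 h cotyledon, the apex at 6, 72 and 1 h, the dark apex and the dark cotyledon. After its highest group, LHCB4.1 ran through the 6 h cotyledon, the 48 and 72 h apex, the 1 h and dark cotyledon and the 6 h, dark, 2 h and 1 h apex. Of the 63 pairs of neighbouring groups 0 passed the test, and the lowest adjusted p was 0.111. Neighbours were picked as the groups with the closest means, so few could pass, and this count says little about the order. Over all 45 pairs of groups, neighbours or not, 0.00548% to 30.8% of all probe sets were called.

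Across the 10 group means of log2 signal, which share arrays, tissue and time, the closest pair was RCA and PSBW (Pearson r = 0.991). The 10 pairs among RCA, PSAE-1, ATPC1, PSBW and PSAN had r of 0.858 to 0.991, the 5 pairs of LHCB4.1 with them 0.780 to 0.891, and the 6 pairs with LHCB4.2 only 0.472 to 0.763, the lowest being LHCB4.2 with LHCB4.1. Against the members' average profile r was highest for PSAE-1 (0.976) and PSAN (0.974) and lowest for LHCB4.2 (0.760). Each member is part of that average, which raises its r, so these values cannot be set against those of other genes. Among 9829 other named probe sets, the 5 with the profile most like that average were AT3G01060 (r = 0.964), AT1G74640 (0.948), AT5G38520 (0.945), AT3G10060 (0.941) and AT1G77090 (0.940), over 10 groups. AT3G01060 stood at 1.47 in the 6 h apex, 2.61 over 24 to 72 h and 1.32 in the 6 h cotyledon, and without both apex arrays named above at 1.24 and 2.58 in the first 2. These r values are descriptions of chosen neighbours and carry no test.

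Of 86 nuclear photosynthesis genes listed for this work, the array annotation named 16 that could be tested, the 7 members and 9 others. Of those 9, 2 rose in the apex at 1 h, 3 at 6 h and 4 over 24 to 72 h, where 5.69%, 12.3% and 8.61% of all probe sets were called higher, with medians of -0.21, 0.22 and 0.49. Without both apex arrays named above, 2 were called at 6 h (LHCB4.3 and PGK2) and 1 over 24 to 72 h (LHCB4.3), with medians of 0.11 and 0.63. In the cotyledon 0 rose at 1 h, and at 6 h 1 rose and 1 fell, where 7.79% of all probe sets were called higher and 7.73% lower. The third CP29 gene, LHCB4.3 (AT2G40100), had apex signals of 38.8 and 55.7 in the dark, 214 and 190.3 at 1 h, 332 at 2 h, 312 and 509.9 at 6 h, 564 at 24 h, 309.6 at 48 h and 107 at 72 h. Its cotyledon signals were 268 and 91.6 in the dark, 335 and 448 at 1 h and 1166 and 1069 at 6 h. It was higher on every illuminated array than on both dark arrays of its tissue and lower at 72 h than at 1 h, and it rose by 2.12 ± 0.41 (SE, adjusted p = 0.00428) at 1 h and 3.10 (adjusted p = 0.000114) at 6 h in the apex and by 2.83 (adjusted p = 0.000349) in the 6 h cotyledon.

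The Calvin cycle gene PGK2 (phosphoglycerate kinase) rose in the apex by 1.48 (adjusted p = 0.00271) at 1 h and 1.44 (adjusted p = 0.00126) at 6 h. In the cotyledon it differed by 0.03 and 0.23, and it was 2.14 (adjusted p = 0.000127) higher in the dark cotyledon than in the dark apex. In that comparison 3 of the 9 other listed genes were called higher, against 8.36% of all probe sets, with a median of 0.69. SBPASE (sedoheptulose bisphosphatase) rose in the apex by 1.02 (adjusted p = 0.0215) at 6 h and differed by -0.09 in the 6 h cotyledon. PSBY, a small photosystem II protein, rose over 24 to 72 h by 1.06 (adjusted p = 0.0407). PGRL1B, a protein of cyclic electron flow, fell in the 6 h cotyledon, with a difference of -1.18 (adjusted p = 0.0329). PRK, PETM, PSB27 and ATPC2, the second gamma subunit gene, were not called in the apex at 1 h, 6 h or 24 to 72 h, nor in the cotyledon. Without both apex arrays named above PGK2 stood at 1.13 (adjusted p = 0.0462) and SBPASE at 0.63 (adjusted p = 0.333) at 6 h, and PSBY at 0.88 (adjusted p = 0.127) over 24 to 72 h. At 6 h in the apex ATPC2 differed by 0.12 and PRK by -0.55.

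Each of the 35 listed photosynthesis genes encoded in the chloroplast was matched, by its symbol in the platform annotation, to 1 tested probe set. In the 6 h apex 0 of them rose and 4 fell (psbI, psbK, petG and ycf4), with a median of -1.44, where 12.9% of all probe sets were called lower and the 7 members had a median of 1.09. Without both apex arrays named above 0 of 35 were called at 6 h and the median was 0.21, so the direction of the list at 6 h rests on those arrays. Over 24 to 72 h 2 of 35 fell (petA and petD), against 6.42% of all probe sets called lower, with a median of -0.60, or 0 called and -0.12 without those arrays, and in the 6 h cotyledon 0 of 35 passed, with a median of -0.11. Of 15 listed regulators of greening 1 was measured, HYH, a bZIP factor of light signalling related to HY5. It rose by 2.86 (adjusted p = 0.000223) at 1 h and 2.60 (adjusted p = 0.000189) at 6 h in the apex, and by 2.76 (adjusted p = 0.00066) and 2.89 (adjusted p = 0.000139) in the cotyledon. Without those arrays the 6 h apex value of HYH was 3.08 (adjusted p = 0.00111).

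**Figure D5:**
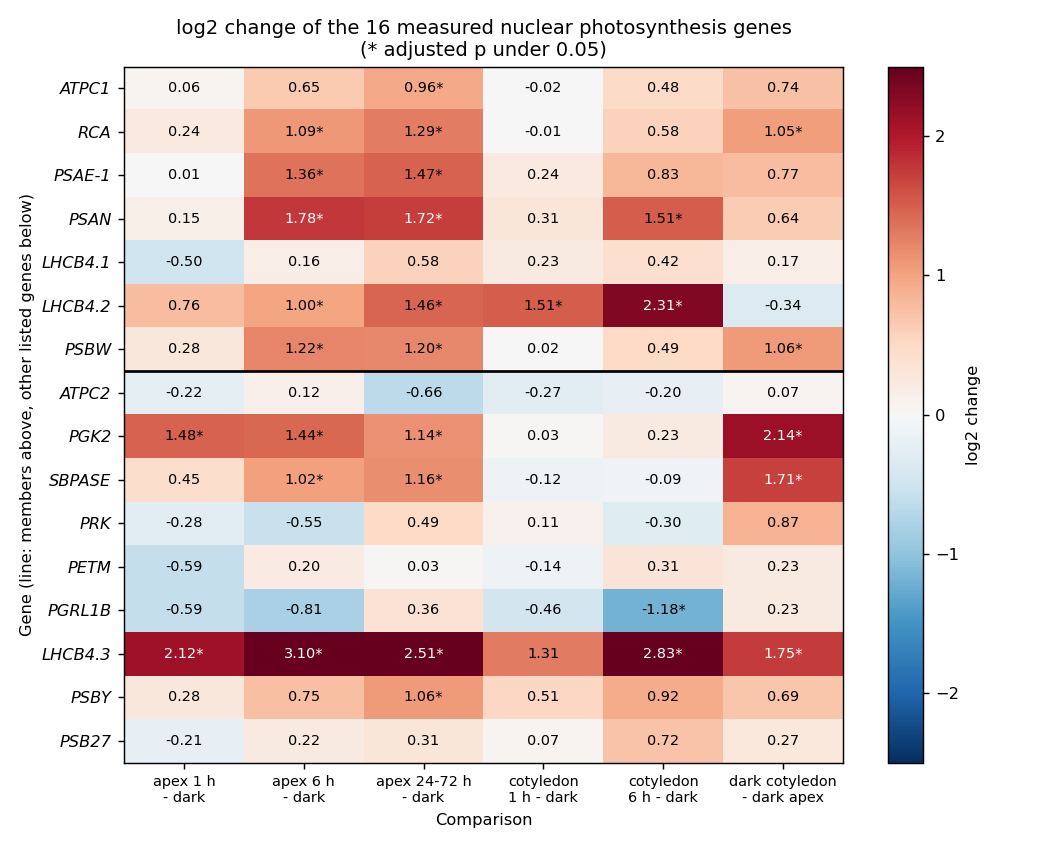
Log2 change (number and colour of each cell, colour scale ending at 2.5 either way, star where the test passed) of the 16 measured nuclear photosynthesis genes, the 7 members first, in the light comparisons of apex and cotyledon and in the dark tissue comparison. LHCB4.3 has the largest apex values at the times plotted, 2.12 at 1 h, 3.10 at 6 h and 2.51 over 24 to 72 h.

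Markers of other cells or states also differed between these arrays. ICL (isocitrate lyase, of the glyoxylate cycle that turns stored lipid into sugar), the 1 of 6 reserve markers that could be tested, had signals of 3667 and 3986 in the dark apex and 58.0 at 24 h, 254 at 48 h and 858 at 72 h. In the cotyledon it went from 8523 and 8720 in the dark to 2187 and 2125 at 6 h. The 2 of 8 leaf primordium markers measured, YAB5 and YAB3, summed to 196 to 301 on the apex arrays up to 6 h and to 416, 362 and 262 at 24, 48 and 72 h, and YAB5 rose by 1.27 (adjusted p = 0.00678) at 6 h, while YAB3 differed by -0.64 (adjusted p = 0.077). Without both doubtful apex arrays YAB5 stood at 0.95 (adjusted p = 0.162). The 3 of 6 stomatal lineage markers measured summed to 50.5 to 110.1 on the apex arrays and to 80.0 to 205 on the cotyledon arrays. Of these MUTE, a regulator of guard cell formation, was called higher in the apex at 2 h (adjusted p = 0.0369) and 6 h (adjusted p = 0.00278), with signals of 2.22 and 1.68 in the dark, under the 35th percentile of those arrays, 19.7 at 2 h and 28.5 and 23.9 at 6 h. It was back under that percentile at 24, 48 and 72 h, at 1.72, 2.91 and 6.69. Without both doubtful arrays its adjusted p was 0.11 at 2 h and 0.0474 at 6 h. The other stomatal genes, SPCH and FAMA, were at 0.16 (adjusted p = 0.871) and -1.28 (adjusted p = 0.0904) at 6 h. Their part in the differences of the 7 genes was not tested.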

How the data were processed

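RNA of 16 pooled shoot apex and cotyledon samples was hybridised to Affymetrix ATH1 arrays of 22810 probe sets, of which 64 controls were left out. The deposited values are MAS5 signal intensities made with GCOS and MAS5, per the submitters' processing notes, with versions not given in the sources used here. Their mean without the lowest and highest 2% was 100.01 on every array. They were taken to log2 without a pseudocount or further scaling. Probe sets above the 35th percentile of their array on at least 2 arrays were tested (18237 of 22746) with limma 3.58.1 in R 4.3.3. The fit had 1 mean for each of 10 groups, an intensity trend, 6 residual and 7.618 prior degrees of freedom, and no block. P-values are two-sided, adjusted by Benjamini-Hochberg within a comparison and called under 0.05.

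In the annotation of the platform 13513 probe sets matched 1 gene, 503 several and 8730 none. A gene with several tested probe sets was represented by its brightest, by mean log2 signal over the arrays. Named genes are the 7 members, the measured nuclear genes of the listed pathways and markers, and the 5 closest profiles; the 35 chloroplast genes are given as counts, with those that passed named. The members and lists were chosen with earlier results of these data known, so no list is independent evidence. Over all probe sets, same-numbered arrays showed little pairing. The correlation of their deviations over 15 pairs of groups ran from -0.128 to 0.125, with 1 over 0.1. Of the 7 genes, 7, 6 and 6 read higher on the first array in the dark, 1 h and 6 h cotyledon. In the dark, 1 h and 6 h apex 5, 4 and 1 did. The replicate block listed below spanned both tissues, and pairing within the cotyledon alone was not tested. Alternatives were quantile normalisation, median centring, no filter and a filter at the 50th percentile, no variance trend, a pseudocount of 16, raising dim values to the percentile, the replicate block, each of the 12 arrays of the groups with 2 arrays left out, and both doubtful apex arrays left out. Leaving out the 24, 48 or 72 h array from their mean was added after the data were seen.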

Additional observations from a re-analysis of the deposited data

How the results depend on the processing

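The 30 called member differences, of 119, were recomputed 370 times: 287 kept direction and call, 83 lost the call and 0 changed sign. Over all 119 there were 1533 recomputations, of which 1376 kept direction and side of the threshold, 29 gained a call and 45 changed sign, all 45 among differences not called. The cause of each change was not tested, beyond the fewer arrays or other probe sets that a setting leaves.

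Counts of the 7 genes called moved as follows. Quantile normalisation gave 2 in the 2 h apex, 3 at 6 h, 4 at 72 h, 2 (LHCB4.2 and ATPC1) between 6 h and the later times and 0 for the dark tissues. Median centring gave 2 at 24 h, 2 at 48 h and 2 for the tissues at 1 h. No filter gave 2 at 48 h and 1 for the dark tissues. The filter at the 50th percentile and the pseudocount of 16 each gave 3 at 72 h and 1 for the tissues at 1 h, and raised dim values gave 3 at 72 h. No variance trend gave 0 at 2 h, 2 at 24 h, 2 at 48 h, 1 from 1 to 6 h in the apex, 0 in the 1 h cotyledon and 0 for the dark tissues. The replicate block gave 2 at 48 h; it lost 4 member calls in all and gained 0. Without both doubtful apex arrays the counts were 0 at 2 h, 1 at 6 h, 2 at 24 h, 2 at 48 h, 1 from 1 to 6 h and 0 for the dark tissues. With 1 array left out, from a group of 2 or, in a setting added after the data were seen, from the mean of 24, 48 and 72 h, the apex counts ran from 0 to 1 at 2 h, 2 to 5 at 6 h, 2 to 2 at 24 h, 1 to 2 at 48 h, 0 to 1 at 72 h, 3 to 6 over 24 to 72 h and 1 to 3 from 1 to 6 h. In the cotyledon they ran from 0 to 1 at 1 h and 0 to 0 from 1 to 6 h, and between tissues 0 to 0 in the dark and 0 to 2 at 1 h.

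Sign changes were small. Under quantile normalisation LHCB4.1 was at -0.14 in the 6 h apex, -0.18 from 1 to 6 h in the cotyledon and -0.17 between dark tissues; LHCB4.2 was at -0.0079 from 1 to 6 h in the apex; RCA at 0.030 in the 1 h cotyledon; PSAE-1 at -0.12 in the 1 h apex and -0.015 between tissues at 6 h. ATPC1 was then at -0.030 and -0.039 in the 1 h and 2 h apex and at 0.024 for the 1 h interaction, and PSBW and PSAN were at 0.30 and 0.27 from 6 h to the later times. Centring put RCA and PSAE-1 at -0.022 and -0.11 from 6 h to the later times and RCA and ATPC1 at 0.077 and 0.074 in the 1 h cotyledon. The replicate block put PSAE-1 at -0.033 from 6 h to the later times. Without both doubtful apex arrays PSAE-1 was at -0.0070 in the 1 h apex, ATPC1 at 0.012 for the 6 h interaction, and PSBW and PSAN at 0.26 and 0.21 from 6 h to the later times.

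With 1 array left out, LHCB4.1 ran from -0.18 to 0.64 in the 1 h cotyledon, -0.21 to 0.60 from 1 to 6 h there and -0.00083 to 0.34 between dark tissues, and LHCB4.2 from -0.76 to 0.085 between dark tissues. RCA ran from -0.33 to 0.30 in the 1 h cotyledon and -0.56 to 0.061 for the 1 h interaction. PSAE-1 ran from -0.033 to 0.054 in the 1 h apex, -0.20 to 0.69 in the 1 h cotyledon and -0.21 to 0.68 for the 1 h interaction. ATPC1 ran from -0.098 to 0.062 in the 1 h cotyledon and -0.39 to 0.058 for the 6 h interaction. PSBW ran from -0.0081 to 0.57 in the 1 h apex, -0.31 to 0.26 from 6 h to the later times, -0.18 to 0.21 in the 1 h cotyledon and -0.55 to 0.025 for the 1 h interaction. PSAN ran from -0.31 to 0.21 from 6 h to the later times and -0.089 to 0.41 for the 1 h interaction.

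Centring also shifted the proportion of called probe sets on the higher side, over all probe sets: from 49.5% to 65.5% between the dark tissues, from 54.8% to 37.1% between 6 h and the later times, from 43.6% to 67.0% between tissues at 1 h and from 30.5% to 41.8% at 6 h. The number of arrays limits the precision: the median standard error over all probe sets was 0.42 for 2 arrays against 2 and 0.51 for 1 against 2.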
